A study of Mus musculus with 9 samples.

Results

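Methotrexate acts on, or is handled by, a small set of enzymes and carriers of folate metabolism, and 7 genes of this set were examined for KDM6A intervals: Tyms, Gart, Atic, Fpgs, Ggh, Slc19a1 and Slc46a1. They were chosen by their roles, out of 21883 protein-coding genes on the main mouse chromosomes, with earlier results of these data already known. An interval, meaning a stretch of the genome that the authors listed for 1 library, was assigned to a gene when it overlapped the gene's span plus 5 kb on each side by at least 1 bp. Of the 142062 intervals in 5 lists, 13 met this rule: 7 in KDM6A control library 1, 3 in control library 2, 2 in MTX library 1, 0 in MTX library 2 and 1 in the IgG library. Of the 7 genes, 6 had an interval in at least 1 KDM6A library and Gart had one in IgG alone.

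Chromatin immunoprecipitation with sequencing (ChIP-seq) had been done for KDM6A in mouse embryonic stem cells of the Sv129 line. The control cells are labelled WT. The MTX cells, labelled with folate deficiency as their genotype, had received 0.12 µM MTX, the drug methotrexate, for 24 h. Each group gave 2 KDM6A libraries, the IgG library (a nonspecific antibody, for background) came from MTX cells only, and the 4 input samples are not analysed here as lists of their own. All cells were of 1 line, grown on gelatin with leukemia inhibitory factor and serum. The labels give the same treatment text, with MTX, for every sample, so the control libraries are known as such only from their titles (C1 and C2) and the genotype WT. The labels do not say whether libraries 1 and 2 were separate cultures, so the spread between them may be technical. Interval lists hold no expression, so the labelled cell type was not checked against its markers.

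KDM6A, also called UTX, is a histone demethylase that removes the repressive methyl mark set by Polycomb complexes and belongs to a complex of histone methyltransferases at active genes. Methotrexate is a folate analogue that enters cells through folate carriers, is lengthened by a chain of glutamates that keeps it in the cell, and inhibits enzymes that need folate cofactors to make thymidylate and purines. Stem cells that divide quickly depend on these enzymes for DNA synthesis.

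The KDM6A lists differed in length: 44838 intervals in control 1, 21228 in control 2, 24177 in MTX 1, 28976 in MTX 2 and 22843 in IgG. Reads inside intervals numbered between 3251202 and 4192029 per library, and the full depth of the libraries is unknown. The lists have no column names. From their values, the columns beside each interval were read as the immunoprecipitated reads, the reads of a background library whose identity is not stated, their ratio scaled by 1 constant per list (the deposited fold) and a p-value with an adjusted p. These folds are the authors' values and describe an interval within its own list. Counting intervals (95%, exact, from the binomial share of immunoprecipitated reads) were added here and cover counting error only. The median deposited fold was 1.39 to 1.62 over the 5 lists, and the share of intervals with an adjusted p under 0.05 and a fold above 1 was 78.5 to 84.9%.

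Of the 7 starts that the RefSeq promoter table lists for 6 members, that of Tyms alone lay inside an interval, in control library 1. (At Fpgs the span begins farther upstream than the listed start, and that end of the span also lay inside a control 1 interval.) The start of Slc46a1 lay 700 bp from the interval with the highest deposited fold at any member. The bases before these 2 starts show what the intervals cover or border; that of Slc46a1 was chosen after its value was seen. They run 5′ to 3′ in the direction of transcription from RefSeq (GRCm38.p6, the same build as mm10), and end 1 base before the start. Tyms is at chr5:30073626-30073875 on the minus strand and Slc46a1 at chr11:78465451-78465700 on the plus strand. Capitals mark matches to the letters searched.
Tyms: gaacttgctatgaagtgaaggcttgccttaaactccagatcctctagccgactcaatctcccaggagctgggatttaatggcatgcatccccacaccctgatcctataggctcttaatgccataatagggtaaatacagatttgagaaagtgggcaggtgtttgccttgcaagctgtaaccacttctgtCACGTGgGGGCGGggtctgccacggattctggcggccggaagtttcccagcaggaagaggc
Slc46a1: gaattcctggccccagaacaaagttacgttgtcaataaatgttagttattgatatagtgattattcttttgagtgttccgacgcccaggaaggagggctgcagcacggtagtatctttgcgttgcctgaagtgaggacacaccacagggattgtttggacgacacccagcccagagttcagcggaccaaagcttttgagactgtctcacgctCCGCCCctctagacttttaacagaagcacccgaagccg

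Letters were searched on both strands, and the matches printed do not overlap. The GC box GGGCGG was found before 6 of the 7 starts listed for the members, at least once for each of the 6 genes with an entry, and before 42.6% of 21262 starts of protein-coding genes. The letters CCAAT were found for Atic, Fpgs and Gart, against 35.4% of all starts. The E-box CACGTG was found for Atic and Tyms, against 6.63%. The letters TATAAA were found for no member, against 11.6% of all starts. The E2F-type sequence GCGGGAA was also found for none, against 4.96%. The upstream 250 bases of Tyms held 6 CG pairs and those of Slc46a1 11, beside 22 for Atic, 19 for Gart, 16 at both starts of Slc19a1, 14 for Fpgs and a median of 10 over all starts. A match describes these letters and shows no binding.

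**Figure D1:**
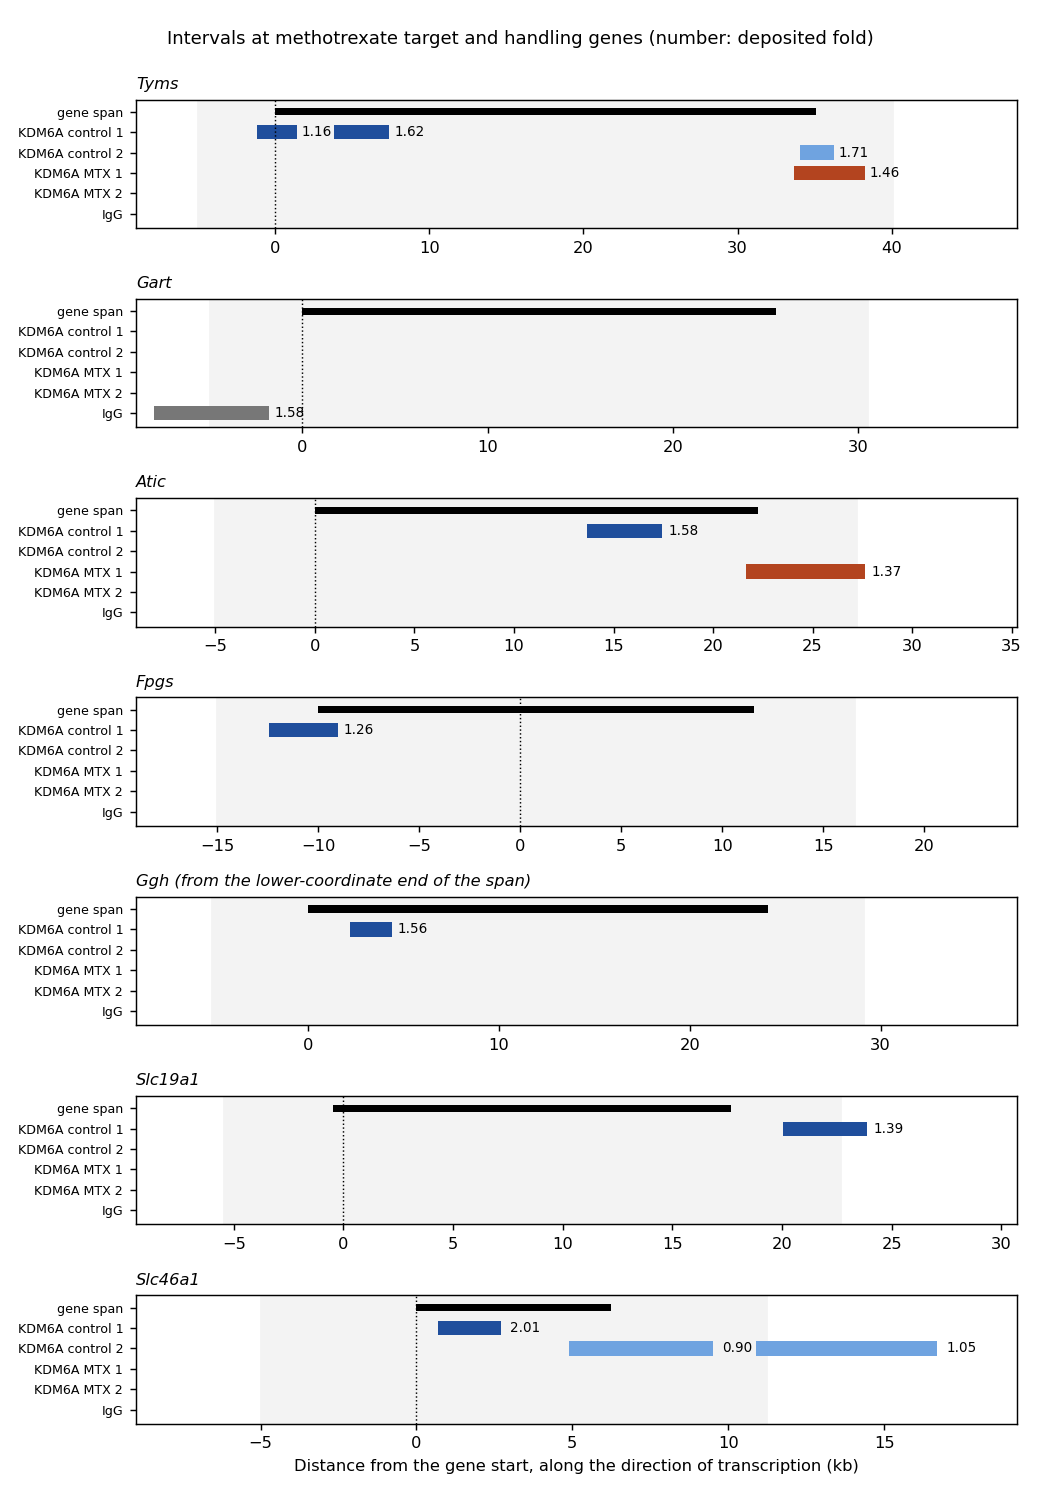
Intervals at the 7 genes. The x axis is the distance in kb from the gene start along transcription (for Ggh, from the end of the span with the lower coordinate; for Slc19a1, from the first of 2 starts). Black bars are gene spans, shading is the span plus 5 kb, coloured bars are intervals of the named library and the number beside each is its deposited fold. The intervals of control 2 and MTX 1 at the far end of Tyms share bases, with folds of 1.71 and 1.46, and MTX 2 has no bar at any gene.

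Tyms encodes thymidylate synthase, which makes the thymidine nucleotide for DNA from a folate cofactor and is inhibited by antifolates. Its gene lies on chromosome 5 (30038546 to 30073645) and was the member with intervals in most libraries, 3 of the 4 KDM6A libraries. Control library 1 had 2 intervals there. The first (30072201 to 30074800) reached from -1175 to 1424 bp relative to the start, with 78 reads against 89 background reads, a deposited fold of 1.16 (counting interval 0.844 to 1.59) and a deposited adjusted p of 0.0998. The second (30066201 to 30069800) lay wholly inside the span, 3825 to 7424 bp after the start, with 108 against 88 reads, a fold of 1.62 (1.21 to 2.18) and an adjusted p of 2.78e-06. So the interval over the start was the weaker of the pair and ranked in the last part of its list, at 88.4% from the top by p-value, while the inner one ranked at 40.3%.

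At the other end of Tyms, control library 2 and MTX library 1 had an interval in the same place. The control 2 interval (30037401 to 30039600) had 82 against 50 reads, a fold of 1.71 (1.19 to 2.48) and an adjusted p of 7.80e-06. The MTX 1 interval (30035401 to 30040000) had 142 against 104 reads, a fold of 1.46 (1.13 to 1.91) and an adjusted p of 1.76e-05. All 2200 bp of the former lay inside the latter, which ran from 33.6 to 38.2 kb after the start, across the end of the span. Apart from the outer edge of the Slc46a1 window, described further on, this was the only place at a member where intervals of both groups shared bases, and control 1, MTX 2 and IgG had no interval there. The nearest IgG interval was 58.6 kb from the MTX 1 interval, and the intervals of control 1 were at least 26.2 kb away.

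Gart encodes a trifunctional enzyme of purine synthesis, and Atic the enzyme that completes the purine ring and is inhibited by polyglutamated methotrexate. Gart, on chromosome 16 (91621395 to 91646972), had no KDM6A interval within 5 kb. An IgG interval (91648801 to 91655000) lay at -8028 to -1829 bp relative to its start, over the predicted gene Gm36712 and part of Son, which encodes an RNA splicing cofactor, with 226 against 148 reads and a fold of 1.58 (1.28 to 1.96). A control 1 interval over Son (91653001 to 91655800, 90 against 40 reads, fold 2.98) overlapped that IgG interval but was 6.03 kb from Gart. The next KDM6A intervals were 18.2 kb away in MTX 1, 141 kb in control 2 and 166 kb in MTX 2.

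Atic, on chromosome 1 (71557156 to 71579403), had 1 interval in each of the replicate 1 libraries. The control 1 interval (71570801 to 71574600) was wholly inside the gene, 13.6 to 17.4 kb after the start, with 97 against 81 reads and a fold of 1.58 (1.17 to 2.15, adjusted p 1.95e-05). The MTX 1 interval (71578801 to 71584800) held the far end of the span, with 172 against 135 reads and a fold of 1.37 (1.08 to 1.73, adjusted p 8.29e-05), and 10.1% of its 6000 bp lay inside the gene. The intervals of Atic were 4200 bp apart, so the control and MTX values belong to different sites. MTX 2 had its nearest interval 6.36 kb before the gene, with a fold of 1.70, and control 2 had none within 85.4 kb.

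Fpgs and Ggh set how long methotrexate stays in a cell. Fpgs encodes folylpolyglutamate synthase, which adds the glutamate chain, and Ggh encodes gamma-glutamyl hydrolase, which removes it. Both had an interval in control library 1 and in no other library. At Fpgs, on chromosome 2 (32682609 to 32704196), the interval (32703201 to 32706600) had 75 against 79 reads, a fold of 1.26 (0.903 to 1.74) and an adjusted p of 0.0289. It lay at -12.4 to -9.03 kb relative to the listed start, over the upstream end of the gene's span, and also covered part of Cdk9, which encodes a kinase of transcription elongation.

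At Ggh, on chromosome 4 (20041997 to 20066111), the control 1 interval (20044201 to 20046400) lay wholly inside the gene, 2204 to 4403 bp from the end with the lower coordinate. It had 66 against 56 reads, a fold of 1.56 (1.08 to 2.27) and an adjusted p of 4.58e-04. The other libraries had their nearest interval farther out: 11 kb away in control 2, 77.6 kb in MTX 2, 185 kb in MTX 1 and 217 kb in IgG. The control 2 interval (20028601 to 20031000), outside the 5 kb limit, had 99 against 25 reads and a fold of 4.13, higher than that of any interval inside a member's window. From Fpgs the nearest intervals were 64.2 kb away in MTX 1, 144 kb in IgG, 295 kb in control 2 and 306 kb in MTX 2.

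Slc19a1 encodes the reduced folate carrier, the main route of methotrexate into many cells, and Slc46a1 the proton-coupled folate transporter. At Slc19a1, on chromosome 10 (77032269 to 77050432), control library 1 had an interval (77052801 to 77056600) 2.37 kb beyond the far end, inside the span of Col18a1, which encodes a basement membrane collagen. It had 80 against 76 reads, a fold of 1.39 (1.00 to 1.93) and an adjusted p of 2.77e-03. No interval of any library lay inside the span of Slc19a1. Its nearest intervals in the other libraries were 8.87 kb away in control 2, 55.1 kb in MTX 1, 63.3 kb in IgG and 75.5 kb in MTX 2.

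Slc46a1, on chromosome 11 (78465701 to 78471945), had intervals in both control libraries and in neither MTX library. The control 1 interval (78466401 to 78468400) lay inside the gene, 700 to 2699 bp after the start, with 67 against 44 reads. Its fold of 2.01 (1.36 to 3.02, adjusted p 2.62e-07) was the highest of the 12 KDM6A intervals at members. Control library 2 had an interval across the far end of the gene (78470601 to 78475200), where 150 reads stood against 174 and the fold was 0.898 (0.717 to 1.12, adjusted p 1.00), and one beyond it (78476601 to 78482400) with 201 against 199 reads and a fold of 1.05 (0.861 to 1.29, adjusted p 0.251). Both covered Sarm1, a neighbour that encodes an enzyme of axon degeneration. Within the 5 kb limit the intervals of control 1 and control 2 were at least 2200 bp apart, so the presence of Slc46a1 in both lists by this rule rests on different sites. Beyond the limit, another control 1 interval (78479201 to 78481600) lay inside the outer one of control 2. The counting intervals of both control 2 intervals included a fold of 1.

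**Figure D2:**
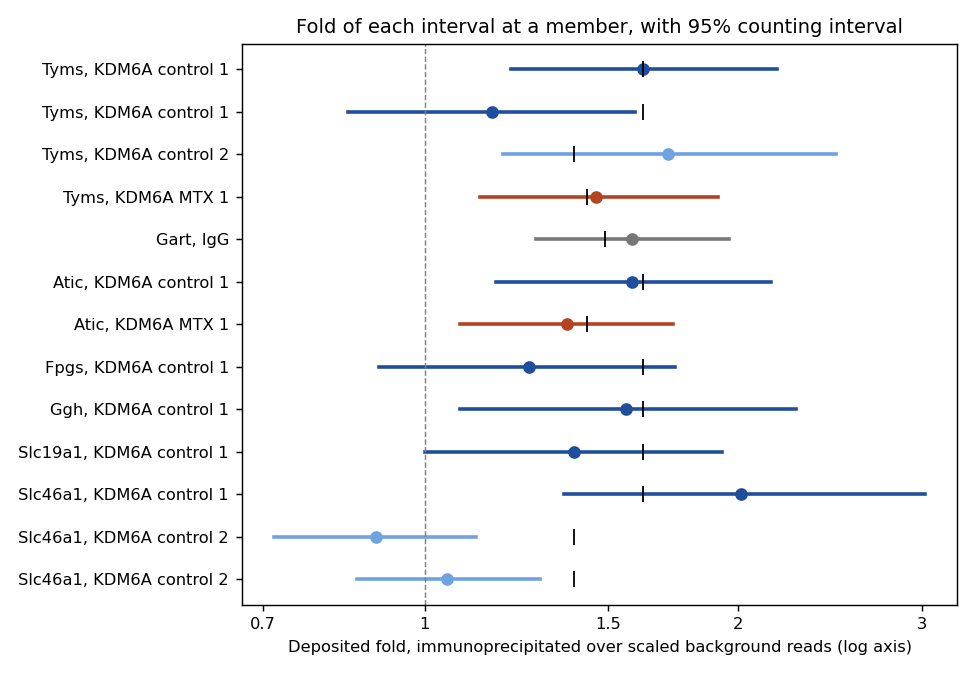
Deposited fold (x axis, log scale) of each of the 13 intervals at members, 1 row per interval. Points are folds, lines are 95% counting intervals, black ticks are the median fold of the same list and the dashed line is a fold of 1. The Slc46a1 interval of control 1 has the highest fold, 2.01, and the 2 Slc46a1 intervals of control 2 lie left of their list's median.

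Across the members, the 12 KDM6A intervals had folds of 0.898 to 2.01 with a median of 1.42 and between 66 and 201 reads. A deposited adjusted p under 0.05 with a fold above 1 was held by 9 of them, and 8 had a counting interval above a fold of 1, the lowest with its limit at 1.00 at Slc19a1. Of the 12, 6 ranked in the better 50% of their list, and the best rank was 32.7% from the top. None of the 12 overlapped an IgG interval, the distances being 7.60 to 237 kb. Only Gart had an IgG interval in its window, and the share of all KDM6A intervals that overlap IgG was not computed. This count therefore has no background beside it. Intervals were 2000 to 6000 bp wide, and 8 of the 12 were wider than the median of their list.

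Counts of genes with an interval were read beside the same count over all 21883 protein-coding genes. In control library 1, 6 of the 7 members had an interval, against 47.1% of all genes. Control library 2 had 2 members (Tyms and Slc46a1) against 26.1%, MTX library 1 had 2 (Tyms and Atic) against 33.5%, MTX library 2 had 0 against 30.8% and IgG had 1 (Gart) against 27.5%. Longer genes meet more intervals, and the members' spans ran from 6245 to 35100 bp. Among the 9338 genes with spans in that range, the shares were 41.2, 18.3, 26.8, 22.3 and 20% in the same order of libraries. The members' own shares were 85.7, 28.6, 28.6, 0 and 14.3%, above the background in control 1 and below it in MTX 2 and IgG, with 7 genes in all and no test made on this list.

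**Figure D3:**
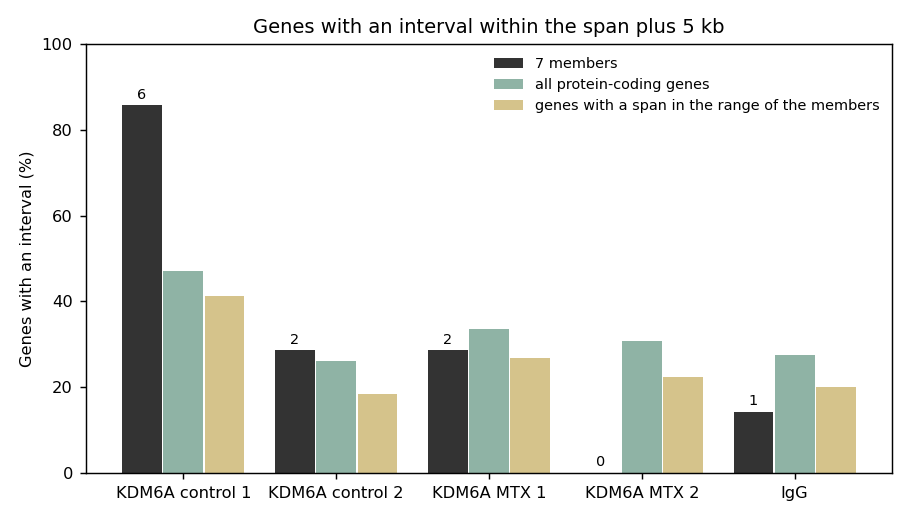
Percent of genes (y axis) with at least 1 interval in the span plus 5 kb, per library. Dark bars are the 7 members with their number above, green bars all protein-coding genes and tan bars genes with spans of 6245 to 35100 bp. The members' bar is above the others in control 1 (6 of 7) and at 0 in MTX 2.

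The high count in control 1 was not kept in lists of equal length. When each list was cut to the 21228 intervals of smallest deposited p, as many as in the shortest list, control 1 kept Tyms and Slc46a1, 2 of 7 members, against 25.6% of all genes. This cut drops the intervals of larger p, so list length and interval strength changed together, and their separate parts were not tested. The other counts were then 2 in control 2 (26.1%), 2 in MTX 1 (30.1%), 0 in MTX 2 (23.9%) and 1 in IgG (25.5%). With only intervals of adjusted p under 0.05 and fold above 1, the counts were 6, 1, 2, 0 and 1, against 41.3, 22.3, 27.4, 26.7 and 22.9% of all genes, and Slc46a1 was the gene lost from control 2.

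An interval over the promoter window, from 250 bases before to 50 bases after a listed start, was found at 1 of the 6 members with an entry (Tyms, control 1). Over 17491 protein-coding genes the share was 10.8% in control 1, 2.78% in control 2, 7.83% in MTX 1, 3.32% in MTX 2 and 5.57% in IgG. The other intervals at members lay downstream of starts, at gene ends or in neighbours: 4 of the 12 KDM6A intervals were wholly inside a member, 6 crossed an end of a span and 2 lay outside. The gene table gives spans without exons, so exonic and intronic positions were not resolved.

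By bases, intervals covered 9.07% of the members' windows in control 1, 3.20% in control 2, 4.57% in MTX 1, 0% in MTX 2 and 1.42% in IgG. Over the windows of all protein-coding genes the shares were 6.81, 4.32, 4.59, 5.27 and 4.41%. Among genes with spans in the range of the members they were 6.49, 3.39, 4.49, 4.06 and 3.68%. In the members' spans without the flanks, the share was 1.57% in control 2, 1.34% in MTX 1 and 0% in IgG, and with an adjusted p under 0.05 and a fold above 1 it was 0.986% in control 2. In control 1 every member had an interval within 6.03 kb, Gart being the farthest. The median distance from a member to the nearest interval was 0 kb in control 1, 11 kb in control 2, 18.2 kb in MTX 1, 75.5 kb in MTX 2 and 63.3 kb in IgG, beside 7.23, 47.4, 26.2, 32.9 and 43.0 kb over all genes. Genes with spans in the range of the members had medians of 11.2, 56.4, 32, 44.1 and 53.4 kb. MTX 2 had the highest median among the members although its list was the second longest.

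**Figure D4:**
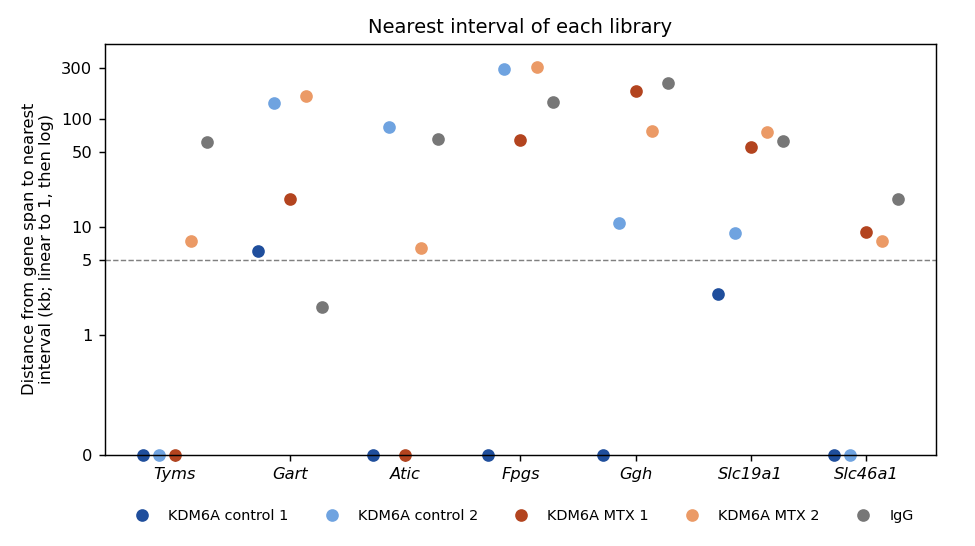
Distance in kb from each member's span to the nearest interval of each library (y axis, linear to 1 and logarithmic above). Points at 0 touch the span and the dashed line is the 5 kb limit. Control 1 lies at or under 6.03 kb for every gene, and MTX 2 lies above the limit for every gene, from 6.36 kb at Atic to 306 kb at Fpgs.

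The comparison of groups asks whether KDM6A was found at these genes in control cells or in MTX cells. No member had an interval in all 4 KDM6A libraries, against 13.2% of all genes, and no member had one in both MTX and neither control library, against 1.26%. Slc46a1 was the 1 member with an interval in both control and neither MTX library, against 2.18% of genes; with 10 kb on each side that member was Slc19a1 instead. The chromosome of Slc46a1 was dense in intervals: 70.3% of the 1609 protein-coding genes of chromosome 11 had one in control 1 and 58.5% in control 2. Tyms had intervals in every KDM6A library but MTX 2, as had 2.52% of genes, and without MTX 2 it would count among the genes of all libraries. Fpgs, Ggh and Slc19a1 had an interval in control 1 alone of the KDM6A libraries, as had 12.6% of genes. By contrast, 36.1% of all genes had no interval in any of the 5 libraries, and no member was among them. Gart stayed out of that class only through an IgG interval outside its span. Fpgs, Ggh and Slc19a1 stayed out only through control 1, the longest list, and had no interval in lists of equal length. The share of all genes in that class was not computed for lists of equal length.

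With control library 1 alone standing for its group, the members in control and neither MTX library numbered 4 (Fpgs, Ggh, Slc19a1 and Slc46a1), and with control library 2 alone 1 (Slc46a1). Without MTX library 1 there were 2 (Slc46a1 and Tyms). The libraries of a group thus differed from each other in which members they held, 6 against 2 in control and 2 against 0 in MTX cells. No test was made on these counts, since 2 libraries against 2 cannot give an exact permutation p below 1 in 3. A library without an interval at a gene may still have reads there, which the lists do not show.

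The limit of 5 kb bore on several calls. Just inside it were the Slc19a1 interval of control 1 at 2.37 kb and the outer Slc46a1 interval of control 2, while just outside were Gart in control 1 at 6.03 kb, Atic in MTX 2 at 6.36 kb, and Tyms and Slc46a1 in MTX 2 at 7.36 and 7.46 kb. At Tyms that MTX 2 interval (30081001 to 30084800) lay on the side of the start, with 145 against 125 reads and a fold of 1.30. With 10 kb on each side, MTX 2 had an interval at 3 members (Atic, Slc46a1 and Tyms), against 35.1% of all genes, and all 4 KDM6A libraries had one at Slc46a1 and Tyms, 2 of 7 members, against 15.4%.

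Reads could be compared between groups only where all 4 KDM6A libraries had an interval in 1 merged region, and 1 such region touched a member's window, at the outer edge of that of Slc46a1 and inside Sarm1. The merged region ran from 78476601 to 78483400, but each library's reads were counted over its own interval only. Control 1 had 80 against 69 reads over 2400 bp (78479201 to 78481600, fold 1.53), and control 2 had 201 against 199 over 5800 bp (78476601 to 78482400, fold 1.05). MTX 1 had 86 against 82 reads over 2400 bp (78481001 to 78483400, fold 1.13), and MTX 2 had 109 against 129 over 3200 bp (78479401 to 78482600, fold 0.947). Only 600 bp were common to control 1 and MTX 1, so these values compare separately listed stretches that overlap in part and not counts over 1 site. With that limit, the difference of their ratios to background, MTX minus control, was -0.30 on the log2 scale and did not pass edgeR's quasi-likelihood test (Benjamini-Hochberg adjusted p = 1.00 over 2132 regions). The fit called 0 of 2132 regions (0%), with 83 at an unadjusted p under 0.05, and limma on the same ratios called 0. DESeq2 was run on immunoprecipitated reads without the background reads and called 16. Its calls compare reads over stretches of unequal width and are not calls on the ratios. Without control library 1 the difference of the ratios in edgeR was -0.03, so the size of that difference rested on control library 1. Among all 11 merged KDM6A regions at members, 9 belonged to 1 library (81.8%), the Tyms far-end region to 2 and this one to 4, beside 75.8% of 82424 regions over the genome in 1 library and 2.59% in 4.

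Of 46 other genes of the pathway, in 5 lists chosen by role, 30 had an interval in control 1 (65.2%), 13 in control 2 (28.3%), 20 in MTX 1 (43.5%), 17 in MTX 2 (37.0%) and 22 in IgG (47.8%), beside 47.1, 26.1, 33.5, 30.8 and 27.5% of all genes. Folate cycle enzymes, which pass 1-carbon units between folate forms, had 7, 3, 3, 5 and 6 of 15 in the same order. Enzymes of purine synthesis had 7, 2, 5, 4 and 6 of 9, and those of thymidylate supply 4, 0, 0, 0 and 2 of 5. Genes of adenosine handling, a pathway linked to the anti-inflammatory action of methotrexate, had 4, 3, 5, 3 and 2 of 6, and folate receptors, other carriers and efflux pumps 8, 5, 7, 5 and 6 of 11. All 4 KDM6A libraries had an interval at 8 of the 46 genes, beside 13.2% of all genes, and 0 were in both libraries of 1 group alone, beside 2.18% for control and 1.26% for MTX. The 46 genes were longer than most, with a median span of 26.4 kb against 17.2 kb over all protein-coding genes. Shares among genes of like span were not computed for these lists, so the differences from all genes were not separated from gene length.

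The pathway genes with intervals free of IgG overlap in at least 3 KDM6A libraries were mostly long. The share of all genes that meet this rule was not computed. Abcc5 and Abcg2, which encode pumps that export methotrexate, had spans of 95.1 and 108 kb and such intervals in all 4 KDM6A libraries. Over all intervals at Abcc5 the folds were 1.32 to 1.62 in control 1 (3 intervals, of which 1, with the fold of 1.62, overlapped IgG), 1.85 in control 2, 2.53 in MTX 1 and 2.42 in MTX 2, beside 0.969 in an IgG interval. At Abcg2 they were 1.44 to 3.51 in control 1 (8 intervals, of which 2 overlapped IgG) and 2.00, 1.40 and 1.84 in the other KDM6A libraries, beside 1.41 and 1.45 in IgG. The control 1 intervals at Abcc5 shared no bases with those of the other KDM6A libraries. At Abcg2 the MTX 2 interval shared none with the other libraries, so these folds belong in part to different sites. The pumps Abcc2 (56.0 kb) and Abcc4 (225 kb) had intervals free of IgG overlap in 3 libraries. Their KDM6A folds were 1.23 to 2.59 and 1.23 to 1.74. IgG folds were 1.65 at Abcc2 and 1.89 at Abcc4, the latter above every KDM6A fold there.

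Among the other groups, Adk, which encodes adenosine kinase over 396 kb, had 26 intervals in control 1, 17 in control 2, 11 in MTX 1, 22 in MTX 2 and 17 in IgG. Of the KDM6A intervals, 10, 7, 4 and 6 overlapped IgG, in the same order of libraries. Folds at Adk were 0.945 to 2.89, 0.994 to 2.26, 1.16 to 2.98 and 1.03 to 3.11, beside 0.938 to 2.29 in IgG. Nt5e, whose product makes adenosine outside the cell, had no IgG interval over its 44.5 kb and folds of 2.45 and 1.09 in control and 1.45 to 1.69 and 1.38 in MTX libraries. These folds belong in part to different sites. The control 1 and control 2 intervals shared no bases, and the MTX 2 interval shared none with any other library. The control 2 fold of 1.09 had a deposited adjusted p of 0.111. Mthfd1l, a mitochondrial folate enzyme of 194 kb, had folds of 1.09 to 1.83 in the 3 KDM6A libraries other than control 1 and 1.32 in IgG. Pfas, an enzyme of purine synthesis on chromosome 11 and the only one of these genes with a span in the range of the members (22.8 kb), had folds of 0.836 to 1.41 in the KDM6A libraries and 1.10 in IgG. The only control 1 interval there, with a fold of 0.995, overlapped IgG. In MTX 2 the interval free of IgG overlap had a fold of 0.987, and the other, with a fold of 1.23, overlapped IgG. Differences between groups at these genes were not tested.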

How the data were processed

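The submitters' processing notes name Bowtie2 as the aligner and mm10 as the build. For the interval caller, the name and settings are not given in the sources used here. The deposited lists have 8 columns without a header, whose meaning was taken from the values, and intervals on a 200 bp grid, 1 list per library and not pooled. The deposited read counts are whole numbers per interval without normalization, and the deposited fold is a ratio of immunoprecipitated to background reads times a constant of 1.04 to 1.32 per list. The deposited p-values and adjusted p-values were used as the authors gave them. Coordinates count from 1.

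Computed here were overlaps with gene spans (RefSeq, GRCm38.p6; spans without strand or exons, all 7 members and all 46 pathway genes matched), strand and starts from the RefSeq promoter table (an entry for 6 members; Ggh has none), and exact binomial intervals (Python 3.11.15, scipy 1.17.1). Reads in merged regions of all 4 KDM6A libraries were fitted with edgeR 4.0.16 in R 4.3.3, with scaled background reads as offset and no replicate block. Alternatives were limma 3.58.1 on log2 ratios to scaled background and DESeq2 1.42.0 on immunoprecipitated reads without background. Overlap counting and the fit were run on simulated data to check the code. Apart from the regions made to change, each simulated region had the same ratio to background in every library. The simulation therefore does not give the power of the fit in these data. The members and lists were chosen with earlier results of these data known. All members are named; pathway genes are named where intervals without IgG overlap lay at them in at least 3 KDM6A libraries, up to 8. Libraries 1 and 2 of a group share a number with those of the other group, and the labels do not say what that number marks.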

Additional observations from a re-analysis of the deposited data

How the results depend on the processing

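Of 79 values recomputed under alternative settings, 69 stayed within 1.5 times the reported count, within the spread between replicates, or on the same side of the test's threshold. Counts and shares cannot change sign, and none of the log2 differences did. For the share of bases covered, the spread between replicates was wide (9.07 and 3.20% in control, 4.57 and 0% in MTX). A fall to 0% in control 2 would also have stayed within it. With gene spans alone, IgG had 0 members and covered 0% of them, and the share of bases covered moved from 4.57 to 1.34% in MTX 1 and from 3.20 to 1.57% in control 2, which is within the spread between replicates but over 1.5 times. With 10 kb on each side, MTX 2 had 3 members (Atic, Slc46a1 and Tyms) and 2 members (Slc46a1 and Tyms) had intervals in all 4 KDM6A libraries, while the member in both control and neither MTX library was Slc19a1 in place of Slc46a1. In lists of equal length control 1 had 2 members. With an adjusted p under 0.05 and a fold above 1, control 2 had 1 member and covered 0.986% of the windows, and 0 members were in both control and neither MTX library. Leaving out 1 library at a time, members in all remaining KDM6A libraries numbered 0 to 1, those in control and neither MTX library 1 to 4, and the difference at the Slc46a1 region, between separately listed stretches and not over 1 site, was -0.57 to -0.03 (log2), with adjusted p-values of 0.797 to 0.999 in edgeR. With the replicate block the difference at this region was -0.29 (adjusted p = 0.998 in edgeR). No call changed there, and 1 region in all was called. Within-group deviations of same-numbered libraries did not correlate (Pearson's r = 0 to 2 decimals, across 2132 regions, which are not independent replicates). That correlation cannot show a shift common to all regions of same-numbered libraries, so it does not decide whether the numbers mark pairs. Shares of genes with an interval over the promoter window were 10.8% in control 1 and 7.83% in MTX 1. In control 2 and MTX 2 they were 2.78 and 3.32%. The main fit had no block because the labels do not say what the number marks. Without a background offset the difference at the Slc46a1 region was -0.63 in edgeR and -0.62 in DESeq2. Both values compare immunoprecipitated reads over stretches of unequal width. Each interval at a member rests on 66 to 226 reads, so folds near 1 were not separable from background at this depth.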
